A study of Rattus norvegicus with 6 samples.

Results

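The genes described are Sema7a, 4 other semaphorin genes (Sema3a, Sema4a, Sema5a and Sema6a) and 5 plexin genes (Plxnc1, Plxna1, Plxna2, Plxna4 and Plxnb2). They were taken by symbol from tables of 28358 genes, in which all 10 had a row. All 10 were among the 13242 genes that passed the filter on low counts. Sema7a was chosen because earlier work on these data had found it among the genes with the strongest evidence of a decrease, and the other genes were added with those results known. The differences of the 10 genes between the groups are therefore given as a description: no p-value is printed for them, and where it is said that one passed a threshold, under any setting, this describes the fit and is not independent evidence.

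The RNA came from neuroretinas of 14-month-old male GK (Goto-Kakizaki) rats, a lean strain with inherited type 2 diabetes. The 3 samples of the spironolactone group came from eyes given 1 intravitreal injection of 5 µL of PLGA (degradable polymer) microspheres carrying 6.2 µg of spironolactone, which blocks the mineralocorticoid receptor. The 3 samples of the non-loaded group came from eyes given the same kind of microspheres without drug. The retinas were taken 2 months later, and all 6 samples are diabetic, with no untreated or non-diabetic group. Whether the samples are separate animals is not stated, so errors and p-values cover only the spread among these libraries and may be technical in part.

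Semaphorins are secreted or membrane-bound proteins that share a sema domain and steer growing axons, vessels and immune cells. Plexins are their main receptors, whose intracellular part acts on small GTPases, while class 3 semaphorins that are secreted mostly need a neuropilin as co-receptor. Sema7A is the member held to the outer membrane by a GPI anchor, and it signals through plexin C1 and through integrins of the beta-1 class. In the mouse retina, semaphorins of classes 5 and 6 acting on A-type plexins keep the neurites of inner retinal neurons in their proper layers, and Sema4A is needed for photoreceptor survival.

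The promoters of Sema7a and of the gene of its receptor, Plxnc1, are shown because the values below start from this ligand and set its receptor beside it. They cover 250 bases before and 50 bases after the start of each gene in RefSeq's GRCr8 assembly, at chr8:67244068-67244367 (plus strand) for Sema7a and chr7:31430556-31430855 (minus strand) for Plxnc1, and are written 5′ to 3′ in the direction of the gene. Capitals mark GC boxes (GGGCGG on either strand; the motif overlaps none of the others searched), the binding motif of SP-family factors.
Sema7a: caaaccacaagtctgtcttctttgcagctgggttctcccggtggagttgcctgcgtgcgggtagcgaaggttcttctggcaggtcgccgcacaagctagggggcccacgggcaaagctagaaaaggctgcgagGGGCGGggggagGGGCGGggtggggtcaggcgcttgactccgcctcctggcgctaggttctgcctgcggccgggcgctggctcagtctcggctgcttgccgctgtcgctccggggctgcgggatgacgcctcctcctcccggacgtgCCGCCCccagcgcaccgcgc
Plxnc1: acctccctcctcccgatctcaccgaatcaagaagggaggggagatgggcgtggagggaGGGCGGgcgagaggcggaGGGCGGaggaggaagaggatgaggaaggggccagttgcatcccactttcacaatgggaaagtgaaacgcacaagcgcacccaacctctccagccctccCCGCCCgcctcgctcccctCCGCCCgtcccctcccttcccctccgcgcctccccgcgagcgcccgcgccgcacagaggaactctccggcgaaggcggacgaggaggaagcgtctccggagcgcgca
The Sema7a window held 3 GC boxes and the Plxnc1 window 4, and 33.1% of 33469 promoters of this length held at least 1. Neither window held a match, on either strand, to the response element shared by glucocorticoid and mineralocorticoid receptors (a palindrome, in 0.0149% of promoters), its half-site (TGTTCT, 20.7%), the core motif of the photoreceptor factor CRX (TAATCC, 7.17%) or the E-box (CACGTG, 6.42%). Of the 10 genes, 6 had a promoter in that table, and 5 of these held a GC box. A match or its absence in these letters is a description only.

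Sema7a was the most abundant semaphorin transcript in these retinas. On the TPM scale, a relative level corrected for transcript length, it measured 259 ± 14.2 in the spironolactone group and 364 ± 36.5 in the non-loaded group (SD, n = 3 each), and over all 6 libraries its mean of 311 ranked 390th among the 28358 genes. It stood 2.34 times above the next gene of the semaphorin and plexin families, Sema6c (133 ± 13.3 TPM, SD over 6 libraries), and above it in all 6 libraries. Sema3f (59.4 ± 13.8 TPM) and Plxnb1 (58.3 ± 3.12 TPM) followed, and their order was not stable, with Sema3f above in 2 of 6 libraries.

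Among the other described genes, Plxnb2 (38.2 ± 3.46 TPM) and Sema4a (36.9 ± 2.23 TPM) lay together, with Plxnb2 higher in 4 of 6 libraries. Sema6a (30.2 ± 1.85 TPM) was below Sema4a in all 6 libraries. Sema5a (26.5 ± 2.28 TPM) and Plxna2 (23.9 ± 1.45 TPM) came next, and Plxna1 (14.1 ± 0.99 TPM) was lower still. The lowest were Plxna4 (6.20 ± 1.16 TPM), Plxnc1 (6.003 ± 0.16 TPM) and Sema3a (5.49 ± 0.67 TPM), whose ranges overlapped. The receptor gene Plxnc1 was thus present at a small part of the level of its ligand gene Sema7a.

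**Figure D1:**
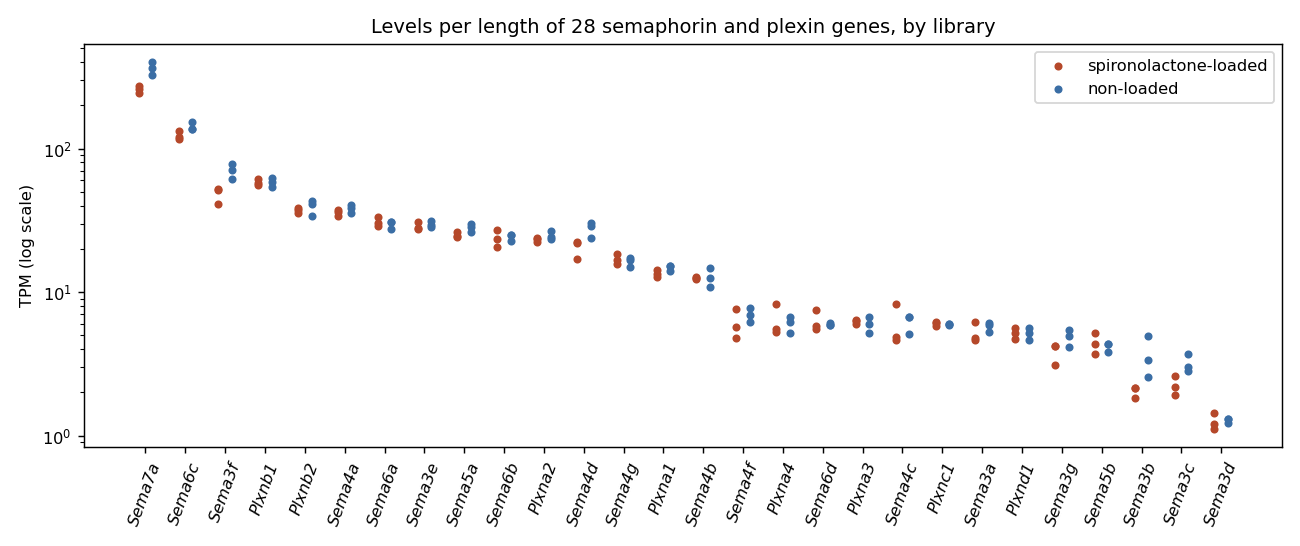
TPM on a log scale for 28 semaphorin and plexin genes in each library, ordered by the mean over all 6. Points are single libraries of the spironolactone-loaded and non-loaded groups, and Sema7a (mean 311 TPM) and Sema6c (133 TPM) stand above the rest; Plxnb3 (at most 0.11 TPM) is not drawn.

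In the comparison of the groups, Sema7a measured 357, 359 and 330.1 CPM (reads relative to library size, scaled with TMM factors, with no length correction) in spironolactone retinas, against 542, 513 and 433 CPM in non-loaded retinas. All 3 spironolactone libraries were below all 3 non-loaded libraries, and non-loaded replicate 3 lay nearest to them. The group means were 349 ± 16.0 and 496 ± 56.4 CPM (SD, n = 3 each), a log2 fold change of −0.51 ± 0.07 (SE), or 0.703-fold. Among the 10 genes, it alone was called, that is, passed an adjusted p of 0.05 in the edgeR quasi-likelihood fit over all genes, with a lower level in spironolactone retinas. In that fit 2.63% of all tested genes were called, 0.763% as lower and 1.87% as higher, and nothing is read from the count of 1 in 10, since this contrast chose Sema7a. When single libraries were left out, the log2 fold change ranged from −0.60 (non-loaded replicate 3 left out) to −0.44 (non-loaded replicate 1 left out), and Sema7a was called each time. In bulk tissue, fewer cells of a type and less RNA per cell cannot be told apart.

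The sample titles carry numbers that are lower in the non-loaded group (2, 3 and 4) than in the spironolactone group (8, 10 and 11). With that number as a covariate in edgeR, 0 genes were called over the whole table (562 had an unadjusted p below 0.05) and the log2 fold change of Sema7a was −0.03. The number follows the group closely (r = 0.953 over 6 libraries), so the number and the treatment cannot be told apart. Sema7a has 1 transcript in the annotation behind the tables. In GRCr8 a long non-coding RNA gene overlaps Sema7a. This overlap is of whole gene spans in another build than the rn6 listed for the files, with neither exons nor strands compared. The strand setting of the counting is not given in the sources used here, so whether the pair shares reads is not known. The same limit holds for Plxnc1, Sema5a, Sema6a, Plxna2, Plxna4 and Plxnb2, which other genes also overlap. Of the other family genes it holds for Sema3b, Sema3c, Sema3e, Sema4d, Sema6c, Sema6d and Plxna3.

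The genes of the Sema7A receptors were not called. Plxnc1 measured 14.9, 14.7 and 15.6 CPM in spironolactone retinas, against 15.2, 15.4 and 14.7 CPM in non-loaded retinas. These values interleaved, and the 95% interval of the log2 fold change ran from −0.25 to 0.25. For the integrin subunit genes, Itgb1 had a log2 fold change of 0.02 ± 0.10 (edgeR, adjusted p = 0.956) and Itga1 of 0.12 ± 0.17 (adjusted p = 0.788), with 95% intervals of −0.19 to 0.23 and −0.23 to 0.47.

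None of the other 4 semaphorins described was called. Sema4a, a membrane semaphorin, measured 39.2, 38.5 and 37.8 CPM in spironolactone retinas and 48.6, 44.9 and 47.3 CPM in non-loaded retinas, groups that did not overlap (log2 fold change −0.28 ± 0.08). Sema5a, a membrane semaphorin with thrombospondin repeats, measured 122.9, 136.6 and 148.7 CPM against 171.5, 144.0 and 145.3 CPM in non-loaded retinas, with overlapping groups (−0.17 ± 0.08). Sema3a, a secreted repellent of axons and vessels that acts through Nrp1, measured 8.03, 8.62 and 11.02 CPM against 10.5, 9.68 and 10.6 CPM in non-loaded retinas (−0.16 ± 0.16). The highest Sema3a value of all belonged to spironolactone replicate 3, and the groups overlapped. Sema6a, a transmembrane ligand of A-type plexins, measured 45.2, 49.2 and 53.5 CPM against 50.2, 45.4 and 47.7 CPM in non-loaded retinas, also with overlap (0.05 ± 0.08).

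None of the 5 plexin genes described was called. Plxna1, a receptor that pairs with neuropilins, measured 66.5, 64.5 and 60.9 CPM in spironolactone retinas, against 72.5, 69.7 and 71.9 CPM in non-loaded retinas (log2 fold change −0.16 ± 0.07). These groups did not overlap. Plxna2, a receptor of Sema6 proteins, measured 136.1, 134.7 and 143.2 CPM against 160.0, 145.0 and 143.2 CPM in non-loaded retinas, so replicate 3 of the groups had nearly equal values (−0.11 ± 0.06). Plxna4, another A-type receptor, measured 15.6, 16.996 and 25.1 CPM against 20.4, 16.4 and 18.6 CPM in non-loaded retinas (0.06 ± 0.15), and its spread came mainly from spironolactone replicate 3. Plxnb2, a receptor of Sema4 proteins, measured 117.7, 127.7 and 131.3 CPM against 147.2, 119.2 and 138.0 CPM in non-loaded retinas (−0.10 ± 0.07), with overlap. In 4 of the 10 genes (Sema7a, Sema4a, Plxna1 and Plxna2) the groups did not overlap, always with the spironolactone group lower, while 20.9% of all tested genes had groups that did not overlap and 9.48% had the spironolactone group lower. For Plxna2 this rests on 143.246 CPM in spironolactone replicate 3 against 143.247 CPM in non-loaded replicate 3, and in TPM its groups overlapped. An unadjusted p below 0.05 with a lower level was reached by 4 of the 10 (Sema7a, Sema4a, Sema5a and Plxna1) and by 6.32% of all tested genes; nothing is read from either count.

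**Figure D2:**
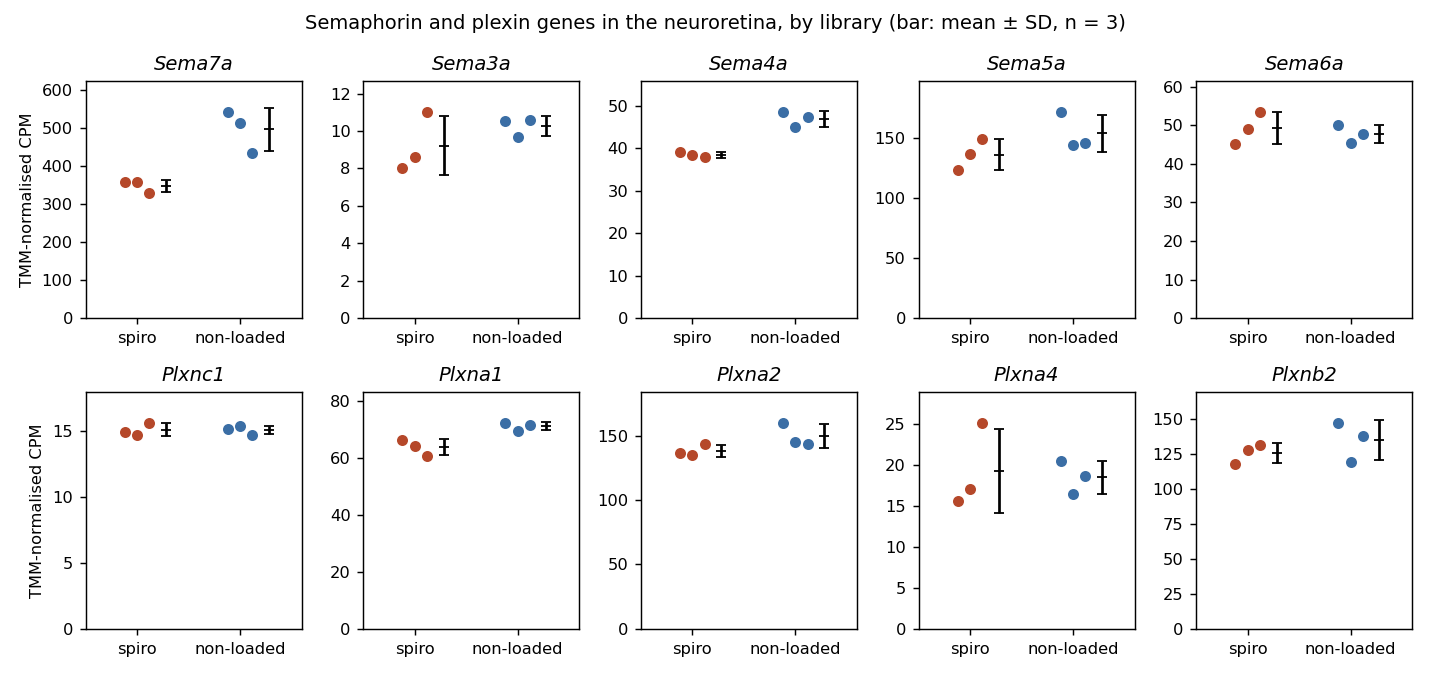
TMM-normalised CPM of the 10 genes in each library, with the spironolactone group ("spiro") left of the non-loaded group; points are libraries and bars the mean ± SD of 3. Sema7a lies at 330.1 to 359 CPM with spironolactone and at 433 to 542 CPM without it, whereas the points of Plxnc1 interleave.

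Beyond these 10, the families hold 15 more semaphorin genes and 4 more plexin genes, of which 18 were tested (Plxnb3 had at most 4 counts in a library). Of the 18, 1 was called by edgeR and by limma-voom (Sema3f, lower) and 2 by DESeq2 (Sema3f and Sema6c, lower), while edgeR called 2.63% of all tested genes. DESeq2 gave no adjusted p to some of the 18, among them Sema3b, Sema3c and Sema3d, so it could not call these. With robust shrinkage edgeR called Sema6c in place of Sema3f. Sema3f, which encodes a secreted ligand of Nrp2 that in the mouse helps keep the outer retina free of vessels, fell to 159.5, 168.3 and 130.3 CPM in spironolactone retinas, against 250.6, 233.2 and 192.8 CPM in non-loaded retinas. All 3 spironolactone libraries were below all 3 non-loaded libraries. Its log2 fold change was −0.56 ± 0.09 (edgeR quasi-likelihood test, adjusted p = 0.00307). Leaving out single libraries kept Sema3f called, with an edgeR adjusted p of 0.00029 (non-loaded replicate 3 left out) to 0.0297 (non-loaded replicate 1 left out). It was not called with robust empirical Bayes shrinkage (adjusted p = 0.0742) or on log2(TPM + 1) with limma (0.0782), and with the title number as a covariate its log2 fold change was 0.18 and not called.

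Among these 15 other semaphorins, edgeR called 1 (0.763% of all tested genes were called lower), and 12 had a negative log2 fold change, with a median of −0.19. Over all tested genes 50.7% were negative and the median was −0.0027. With the 5 semaphorins described first, of which Sema7a was chosen for its decrease, 16 of 20 were negative with a median of −0.18, and without Sema7a 15 of 19 with a median of −0.17. These counts are descriptions of the lists, with no test of a shift of the family. Sema6c, a transmembrane semaphorin and the second most abundant, measured 213.4, 203.3 and 193.6 CPM in spironolactone retinas and 256.4, 236.6 and 223.6 CPM in non-loaded retinas, without overlap, and just missed the threshold (−0.23 ± 0.06, adjusted p = 0.0668). Sema6c passed in 6 of 19 alternatives, among them DESeq2 (adjusted p = 0.0262) and the edgeR fits that left out spironolactone replicate 1 (0.0332) or non-loaded replicate 3 (0.047). With the title number as a covariate its log2 fold change was 0.18, not called. Sema4d, which encodes a ligand of plexin B1, had 17.6 ± 0.98 CPM in spironolactone and 22.5 ± 1.16 CPM in non-loaded retinas (−0.35 ± 0.11, edgeR adjusted p = 0.0924). Sema3b (−0.82 ± 0.27, adjusted p = 0.133) and Sema3c (−0.53 ± 0.19, adjusted p = 0.167), both secreted, had larger differences at low levels, 2.62 and 6.01 CPM in the spironolactone group against 4.68 and 8.68 CPM in the non-loaded group.

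The remaining semaphorins had smaller differences. Sema3g (−0.35 ± 0.17), Sema4f (−0.23 ± 0.15) and Sema4c (−0.19 ± 0.16) were on the negative side without passing. Sema3e, whose receptor is plexin D1, had 67.6 ± 2.69 CPM with spironolactone and 70.9 ± 3.33 CPM without it (−0.07 ± 0.07). The log2 fold changes of Sema6b, Sema3d and Sema4b lay between −0.06 and −0.04, and those of Sema4g, Sema5b and Sema6d between 0.03 and 0.08.

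No plexin or neuropilin gene passed. In the plexin family 0 of 8 genes tested by edgeR were called by edgeR, DESeq2 or limma-voom, while edgeR called 2.63% of all tested genes. DESeq2 gave no adjusted p to Plxnc1, so it could not call that gene. An unadjusted edgeR p below 0.05 was reached by 1 of the 8 (Plxna1) and by 15.8% of all tested genes. Nothing is read from these counts. The median log2 fold change of the 8 was −0.01. Plxnb1, the most abundant plexin, measured 208.9 ± 5.95 CPM in spironolactone and 212.0 ± 8.99 CPM in non-loaded retinas (−0.02 ± 0.06, adjusted p = 0.912). Plxna3 (0.04 ± 0.10) and Plxnd1 (0.00 ± 0.12) also had log2 fold changes near 0. For the co-receptor genes, Nrp1 had a log2 fold change of −0.02 ± 0.11 (adjusted p = 0.958) and Nrp2, the partner of Sema3f, of −0.04 ± 0.10 (adjusted p = 0.915).

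**Figure D3:**
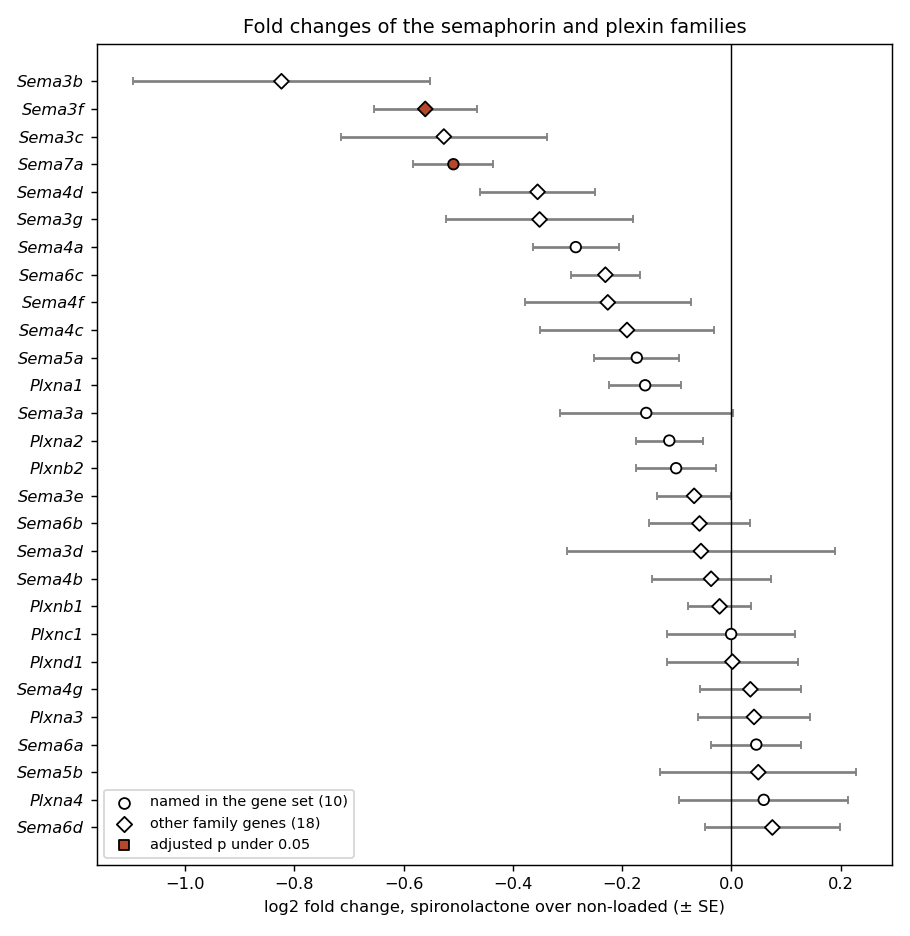
Log2 fold change (spironolactone over non-loaded) with its standard error for the 28 tested semaphorin and plexin genes; circles are the 10 genes described first, diamonds the other 18, and filled symbols passed an adjusted p of 0.05. Sema7a and Sema3f are filled, and 16 of 20 semaphorins lie left of 0.

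Summed over the 20 semaphorin genes, the per-length level was 694, 665 and 625 TPM in spironolactone retinas, against 886, 814 and 775 TPM in non-loaded retinas, and the groups did not overlap. Sema7a made up 39.2 ± 0.20% of that sum with spironolactone and 44.0 ± 1.73% without it (SD, n = 3 each). Without Sema7a and Sema3f the sum was 370.1, 350.8 and 340.8 TPM in spironolactone and 408.5, 376.6 and 388.0 TPM in non-loaded retinas, still without overlap. Sema6c, the most abundant gene left in that sum, measured 123.3 ± 8.21 TPM with spironolactone and 142.7 ± 9.44 TPM without it. The sum over the 9 plexins was 155.7 ± 3.90 TPM in spironolactone and 160.3 ± 12.1 TPM in non-loaded retinas, with overlap.

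The counts for downstream and neighbouring pathways are set beside those of all tested genes. Of all tested genes, edgeR called 2.63%, and 15.8% had an unadjusted edgeR p below 0.05. The lists are short, and nothing is read from their counts. Of 31 genes of plexin signalling (collapsin response mediators, MICAL enzymes, small GTPases and kinases), 0 were called by edgeR and by limma-voom and 1 was called higher by DESeq2; 3 had an unadjusted p below 0.05 in each direction. The smallest p belonged to Rock2, a kinase that acts on the actin cytoskeleton (0.20 ± 0.06, adjusted p = 0.0829), Cdk5, a neuronal kinase that primes collapsin response mediators (−0.24 ± 0.08, adjusted p = 0.143), and Dpysl2, such a mediator (−0.17 ± 0.06, adjusted p = 0.192). Of 36 genes of other guidance families (ephrins, netrins, Slits and their receptors) tested by edgeR, 0 were called by edgeR, DESeq2 or limma-voom. In each direction 1 had an unadjusted edgeR p below 0.05. The smallest p were those of Ephb2 (0.26 ± 0.08, adjusted p = 0.108), Robo3 (−0.53 ± 0.25, adjusted p = 0.296) and Efna5 (0.41 ± 0.22, adjusted p = 0.397). The medians of these lists were 0.01 and −0.06.

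The summed level of rod photoreceptor markers was lower in the same libraries as Sema7a and Sema3f, though not every marker was. Of 13 tested rod markers, 7 fell and 0 rose in the edgeR test, against 0.763% of all tested genes called lower and 1.87% called higher. The other 6 were not called, among them Sag, the rod arrestin gene, with a log2 fold change of 0.08. The median was −0.29, and none was at 0. Their summed level was 38465 to 43072 CPM in spironolactone and 46471 to 58095 CPM in non-loaded retinas. Across the 6 libraries the level of Sema7a followed this sum (r = 0.987), as did Sema3f (r = 0.983) and Sema6c (r = 0.929); these correlations share the group difference and the scaling and are descriptions over 6 points. Per 1000 CPM of rod markers, Sema7a measured 8.89, 8.33 and 8.58 CPM in spironolactone retinas, against 9.33, 8.98 and 9.33 CPM in non-loaded retinas. This ratio still did not overlap between groups but fell by 6.66%, while the level of Sema7a itself fell by 29.8% and the rod sum by 24.7%. For Sema3f the ratio fell by 10.2%. For Sema6c and Sema4a the mean ratio was higher with spironolactone, by 12.8% and 8.07%, and the ratios of the groups overlapped. The part of rod cells or of rod transcripts in the lower semaphorin levels was not tested.

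**Figure D4:**
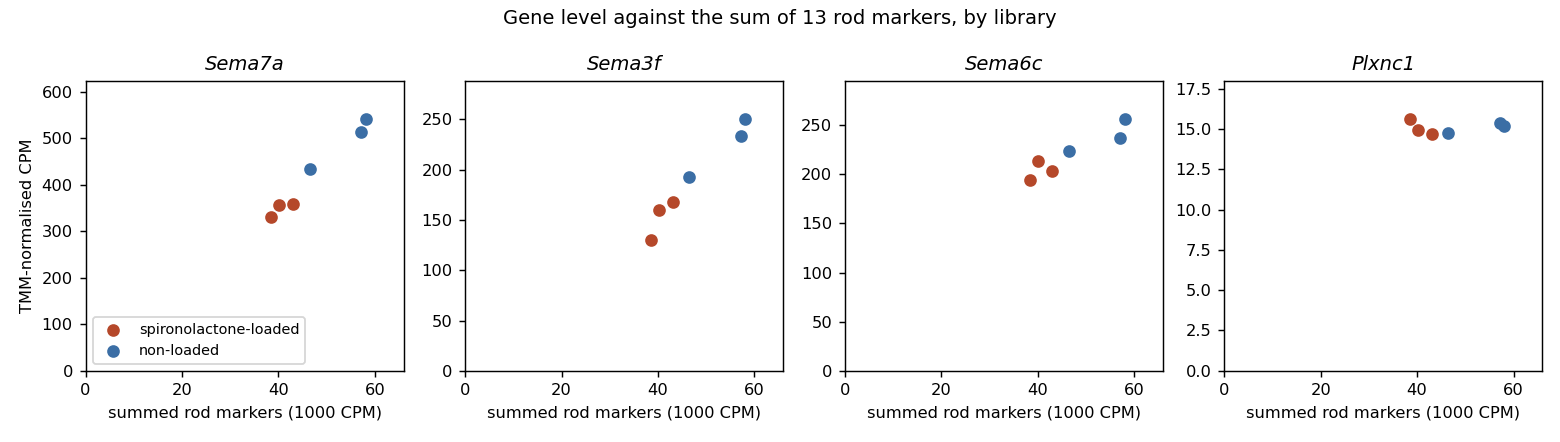
CPM of Sema7a, Sema3f, Sema6c and Plxnc1 in each library against the summed CPM of 13 rod markers (drawn divided by 1000). The levels of Sema7a and Sema3f have the same order over the 6 libraries as the rod sum, Sema6c does not (213.4 CPM in spironolactone replicate 1 and 203.3 CPM in replicate 2, whose rod sum is higher), and Plxnc1 stays at 14.7 to 15.6 CPM.

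The other marker lists held at most 1 called gene each, and edgeR called 2.63% of all tested genes. Some lists had a median log2 fold change near the −0.29 of rod markers. It was −0.26 for pigment epithelium markers, with all 10 tested genes negative, and −0.29 for oligodendrocyte markers (3 tested). The median was −0.13 for cone markers, and it was positive for bipolar (0.07) and erythrocyte (0.38) markers. Cone, Müller glia, ganglion, bipolar, amacrine and horizontal, microglia and pericyte lists had 0 genes called by edgeR, and their summed levels overlapped between the groups. Pigment epithelium markers, from a layer that can adhere to a dissected retina, had 0 of 10 called, with sums of 96.4 to 160.7 CPM with spironolactone and 152.5 to 176.1 CPM without it; Tyr had fewer than 10 counts in every library, and the part of that layer in the Sema4a level was not tested. The endothelial gene Vwf (log2 fold change 0.55 ± 0.14) and the haemoglobin gene Hba-a2 (0.58 ± 0.14) rose. The sums of their lists overlapped, at 111 to 148 CPM with spironolactone and 116 to 125 CPM without it for 7 endothelial markers, and at 86.3 to 156 CPM and 86.5 to 105 CPM for erythrocyte markers. Lens markers summed to at most 2.31 CPM, and oligodendrocyte markers, without overlap, to 21.0 to 24.7 CPM with spironolactone and 25.3 to 26.4 CPM without it, with Mobp at 0. Among lymphocyte markers Cd3d and Cd79a were listed at 0. Their part in the semaphorin levels was not tested. The bipolar marker Otx2 was listed at 0 in all 6 libraries. No absence of RNA is read from a listed 0, since the annotation used for the counting is not given.

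The estimated transcript mix of Sema4a is described here because it bears on its level. The tables give for each gene a length weighted by the estimated abundance of its transcripts, which also enters TPM. Of the 10 genes, 6 have 1 annotated transcript and 4 have several. Sema4a, with 6 transcripts, had weighted lengths of 2130, 2078 and 2174 bases in spironolactone retinas, against 2347, 2393 and 2427 bases in non-loaded retinas. The groups did not overlap, and the mean length was lower by 10.96% with spironolactone, with no test, since 3 samples against 3 cannot reach the threshold of 0.05 in an exact permutation test. Of 3716 tested genes with several transcripts and a length that varied, 10.9% had groups that did not overlap, and 3.44% shifted at least as far as Sema4a. Sema5a, Sema6a and Plxnb2 had lengths that overlapped between the groups.

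The read level and the per-length level of Sema4a gave different fold changes. On the scale of reads its log2 fold change was −0.28, whereas with effective lengths as an offset it was −0.10 and on log2(TPM + 1) it was −0.08. In TPM, Sema4a measured 37.3, 36.0 and 34.1 in spironolactone retinas and 40.2, 35.3 and 38.6 in non-loaded retinas, and the groups overlapped. For Sema7a, with its single transcript, the same alternatives gave −0.51 and −0.48.

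**Figure D5:**
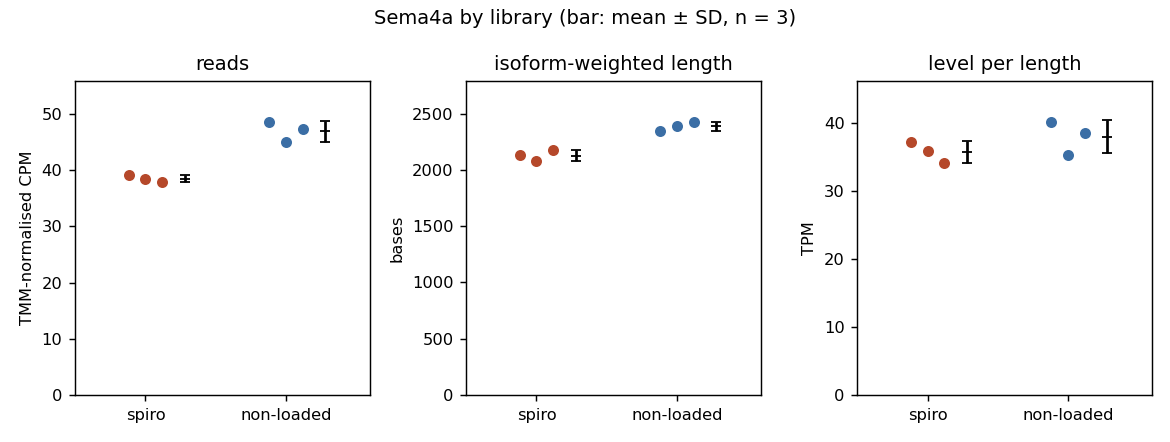
Sema4a in each library as TMM-normalised CPM, as abundance-weighted transcript length in bases, and as TPM; points are libraries and bars the mean ± SD of 3, with the spironolactone group on the left. The groups are apart in CPM and in length (2078 to 2174 against 2347 to 2427 bases) and overlap in TPM.

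The genes whose pattern over the 6 libraries was most like that of Sema7a, by Pearson correlation of log2 CPM among 9835 genes with a symbol and a mean log2 CPM of at least 3, were Pkm (r = 0.998), a glycolytic enzyme gene, Laptm4b (0.997), the vesicular glutamate transporter gene Slc17a7 (0.993), Atp5j (0.992) and Me2 (0.992). These values include the group difference, and 297 of the 9835 genes had r above 0.9. With each group's mean removed, the closest were Ccdc163, Tp53i11, Ccdc43, Mettl10 and Tspoap1 (r of 0.993 to 0.999). As the highest of 9835 values over 6 libraries, r of this size can arise from the selection alone. No link to Sema7a is read from these names. Within the families, Sema3f (0.977 over the 6 libraries, 0.917 with group means removed) and Sema6c (0.965 and 0.882) were closest to Sema7a, while Sema4a reached 0.911 and 0.170 and Plxnc1 0.07 and 0.15.

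The libraries held 9996198 to 12589466 expected counts. Over all tested genes 247 were higher and 101 lower with spironolactone, while on log2(TPM + 1) with limma the split was 82 higher and 18 lower. A chi-square comparison of each pair of libraries gave values of 4.0 to 16 per gene, above counting noise, so that no library was a copy of another.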

How the data were processed

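Per the labels' protocols, RNA of snap-frozen neuroretinas was column-purified with a DNase step, and the KAPA kit used for the libraries keeps the strand. The submitters' processing notes list rn6 as genome and RSEM 1.2.28, STAR 2.5.3a, Trimmomatic and FastQC as tools, with no roles. Neither the annotation nor the strand setting of the counting is given there. Per the file headers, the authors deposited expected counts (RSEM estimates, not normalised), TPM, FPKM (not used here) and abundance-weighted and effective lengths, in 1 table per sample. RSEM divides reads shared by several genes or transcripts by likelihood, so transcript mixes and weighted lengths are estimates.

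Expected counts were rounded and filtered with filterByExpr by group, which kept at least 99.9% of each library's counts. Groups, taken from the treatment label, were compared with edgeR 4.0.16 in R 4.3.3 (TMM, glmQLFit, glmQLFTest, two-sided), and p-values were adjusted by Benjamini-Hochberg across the whole tested table. Standard errors are the size of the log2 fold change over the square root of F. The fit was tested on simulated data, with changes planted in 200 genes above a minimum level. It called 54% of 1.25-fold, 88% of 1.5-fold and 100% of 2-fold changes, so small changes can go uncalled. The simulated spread followed the trend over all genes and not each gene's own, so shares in the real data may differ. Changes in genes below the minimum level were not covered. Alternatives changed the scaling factors, the filter, the shrinkage, the offset and the threshold, added the title number, left out single libraries, or used DESeq2 1.42.0 or limma 3.58.1 (on counts, or on log2 TPM with a pseudocount of 1 or 0.1). DESeq2 gave an adjusted p to 8364 of the 13242 genes, and the rest could not be called by it. Promoters came from RefSeq's GRCr8 table, another build than the files', matched by symbol. The genes, families, marker lists and naming rules were chosen with earlier results of these data known; named are all family genes and, of other lists, called genes or the 3 with the smallest p.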

Additional observations from a re-analysis of the deposited data

How the results depend on the processing

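Of 32 semaphorin, plexin, neuropilin and integrin genes under 19 alternatives each, 567 of 608 log2 fold changes kept their side of the threshold and, for genes not called, moved by less than 1 SD between replicates. Sema7a was called lower in 18 of 19, all but the fit with the title number. That fit turned Sema3f to 0.18 and called 0 genes over the table (edgeR, 562 with an unadjusted p below 0.05), 0 of the 10 genes and 0 of the other family genes, in both cases with 0 below an unadjusted p of 0.05; the cause was not tested. Over all genes, 602 were called without a filter on low counts, 100 on log2(TPM + 1), 95 on log2(TPM + 0.1), 593 at an adjusted p of 0.1, and between 111 (without spironolactone replicate 2) and 621 (without spironolactone replicate 1) when 1 library was left out; without non-loaded replicates 1 and 2 and spironolactone replicate 3 the counts were 124, 157 and 146. Of the 10 genes, 2 were called at an adjusted p of 0.1 (Sema7a and Sema4a) and 2 with an offset for the trend of fold change with gene length, chosen after seeing the data (Sema7a and Sema5a). Of the other family genes, 2 (Sema3f and Sema6c) were called without a filter, with DESeq2 and with the length trend, 0 on log2(TPM + 1) and on log2(TPM + 0.1) with limma (5 with an unadjusted p below 0.05 on each), 3 at an adjusted p of 0.1, and between 1 and 2 when 1 library was left out. With robust shrinkage Sema6c was called and Sema3f was not. Depth limits Plxnb3 (at most 4 counts) and Cd72 (at most 5), which were not tested. No paired analysis was possible because the labels give no replicate numbers that the groups share.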
